A study of Homo sapiens with 4 samples.

Results

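The distal end of the short arm of chromosome 5, band 5p15, carried more SAF-A summits per Mb in its first 2.0 Mb than the same stretch of any other of the 24 nuclear chromosomes. SAF-A (scaffold attachment factor A, also called HNRNPU) is an abundant nuclear protein that binds both RNA and DNA. It was profiled by CUT&Tag, in which antibody-guided transposase cuts out DNA close to the protein for sequencing. All cells were wild-type RPE1, a human retinal pigment epithelial line immortalised with an introduced TERT gene. There were 2 libraries of cells synchronised in mitosis (M) and 2 of asynchronous cells, numbered replicates 3 and 4 in each state, and each assay used 100000 cells with 1 pg of E. coli DNA as spike-in. Separate cultures are not stated for the replicates. A p-value here therefore reflects just the variation among these 4 libraries, and that variation may be technical.

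The members described here are the peaks whose summit lay between 5 kb and 2.0 Mb from the start of chromosome 5 on the human assembly hs1. They numbered 278 and 379 in mitotic replicates 3 and 4, and 328 and 282 in asynchronous replicates 3 and 4. That was 1267 of the 371353 peaks in the 4 lists. The segment was chosen by its summit density, which earlier results of these same 4 lists had shown to be high, so density and all measures that go with it are described and not tested. The neighbouring 8 Mb, from 2.0 to 10 Mb, served as reference and held 752 peaks.

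SAF-A helps to hold RNA on chromatin and to keep active chromatin open in interphase, and in mitosis it is known to be displaced from chromosomes. Distal 5p is rich in genes next to a long gene-poor stretch. From the end inward, the RefSeq table for another assembly, GRCh38.p14, lists among others SDHA (a subunit of succinate dehydrogenase), AHRR (repressor of the aryl hydrocarbon receptor), SLC9A3 (a sodium-proton exchanger), TRIP13 (an ATPase of the spindle checkpoint), TERT (the catalytic subunit of telomerase), CLPTM1L, SLC6A3 (the dopamine transporter) and IRX4 (a homeobox factor). That table gives gene order only for its own build. No annotation of hs1 was used here, so no summit was assigned to TERT or to any other gene, and regions are given by position.

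SAF-A summits were 6 to 8 times as dense on distal 5p as in the neighbouring 8 Mb in every library. There were 139 and 190 summits per Mb in the mitotic libraries, against 21.25 and 28.1 per Mb in the reference. The asynchronous libraries had 164 and 141 summits per Mb, against 27.25 and 17.4 per Mb in the reference. The ratios were 6.56 and 6.75 in mitotic cells and 6.03 and 8.14 in asynchronous cells. Peaks covered 5.90% and 9.48% of the segment in the mitotic libraries, and 7.08% and 5.92% in the asynchronous libraries. The reference was covered at 0.698% and 1.03% in mitotic and 0.909% and 0.552% in asynchronous libraries.

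**Figure D1:**
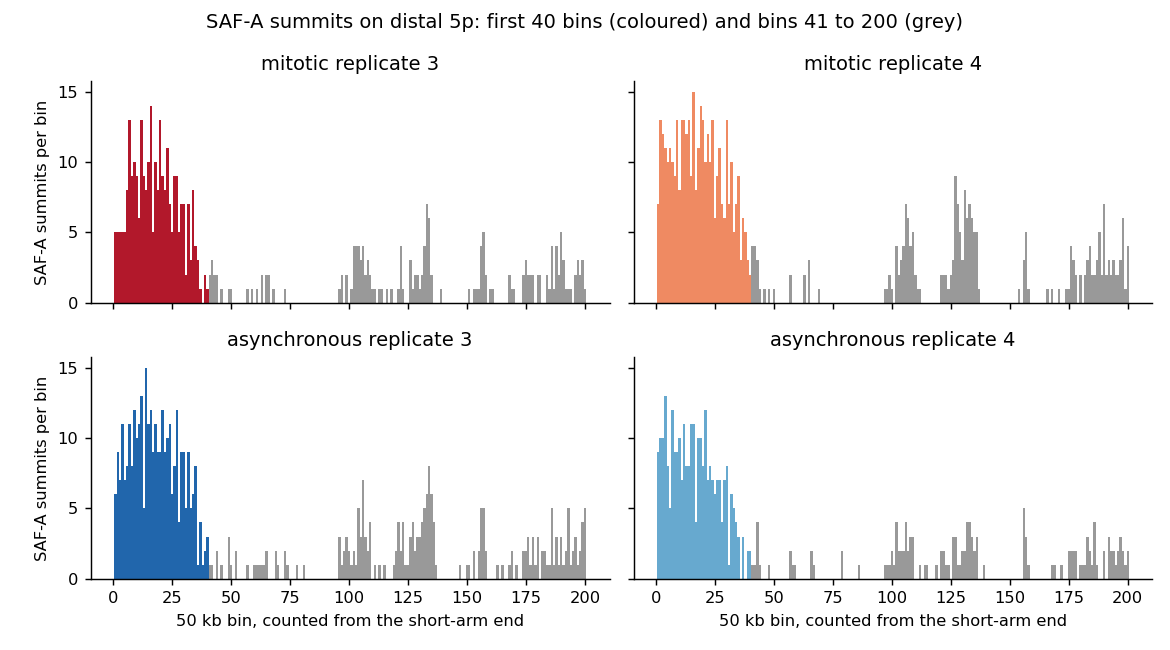
SAF-A summits per 50 kb bin (y axis, count) against bin number from the short-arm end (x axis), 1 panel per library, with the first 40 bins coloured and bins 41 to 200 grey. Counts in the first 30 bins lie between 4 and 15 in all 4 libraries, fall off over the next 10, and no grey bin is above 9.

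Density was high over the first 1.5 Mb and fell off before 2.0 Mb. In bins of 50 kb, the median bin held 7 and 10 summits in the mitotic and 9 and 7.5 in the asynchronous libraries, and the fullest bin held 14 and 15 in mitotic and 15 and 13 in asynchronous. The median reference bin held 1 and 0 summits in mitotic and 1 and 0 in asynchronous libraries. The last 0.5 Mb, from 1.5 to 2.0 Mb, had 62.0 and 114 summits per Mb in mitotic and 88.0 and 52.0 in asynchronous libraries. The stretch from 0.5 to 1.0 Mb was the fullest in 3 of the 4 libraries, with 192 and 242 summits per Mb in mitotic and 210 and 176 in asynchronous libraries. In asynchronous replicate 4 the first 0.5 Mb was fuller, at 192 per Mb.

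The 5 densest bins lay between 300 kb and 800 kb. Bin 16, from 750001 to 800000, held 14 and 15 summits in mitotic and 12 and 11 in asynchronous libraries. Bin 12, from 550001 to 600000, held 13 and 13 in mitotic and 13 and 11 in asynchronous libraries. Bin 7, from 300001 to 350000, held 13 and 10 in mitotic and 11 and 12 in asynchronous libraries. Every library had at least 10 summits in each of these 3 bins. Bin 9, from 400001 to 450000, held 10 and 13 in mitotic and 12 and 9 in asynchronous libraries. Bin 14, from 650001 to 700000, held 8 and 13 in mitotic and 15 and 8 in asynchronous libraries, and there the deeper library of each state had more. The sparsest were bin 38 (0 and 5 summits in mitotic, 1 and 0 in asynchronous), bin 36 (3 and 3 in mitotic, 1 and 0 in asynchronous) and bin 40 (1 and 2 in mitotic, 3 and 2 in asynchronous).

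The limit at 2.0 Mb fell among sparse, low summits, and the limit at 5 kb beside a tall summit at the chromosome end. In the last 100 kb inside 2.0 Mb there were 3 and 5 summits in mitotic and 5 and 4 in asynchronous libraries, and in the first 100 kb outside there were 5 and 8 in mitotic and 2 and 2 in asynchronous. Those inside reached at most 19 fragments and those outside at most 20. At the other limit each library had 1 summit before 5 kb, which the rule leaves out. It stood at 110 and 188 fragments in mitotic and 140 and 135 in asynchronous libraries. The first summit inside the limit, near 11 kb, had only 17 and 30 fragments in mitotic and 18 and 13 in asynchronous libraries.

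Summits on distal 5p were also taller than those of the reference, and stood on a higher floor. Summit height is given as the pileup, the number of fragments over the summit, which was recovered from the authors' fold enrichment and p-value. The median pileup was 22 and 30 fragments in the mitotic libraries, against 9 and 12 in the reference. It was 23.5 and 22 in the asynchronous libraries, against 9 and 9 in the reference. A single pileup of 22 has an exact 95% Poisson interval of 13.8 to 33.3 fragments, which covers counting error only. The segment's median was therefore 2.44 and 2.5 times that of the reference in mitotic and 2.61 and 2.44 times in asynchronous cells.

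The floor is the local background, the fragments per position that the peak caller expected around each summit. It is expressed as a multiple of the smallest local background in the same list, called the genome background, which was 1.17 and 1.79 fragments in mitotic and 1.38 and 1.17 in asynchronous libraries and stands for relative depth. On distal 5p the median summit had a local background 5.401 and 5.33 times the genome background in mitotic and 4.82 and 5.18 times in asynchronous libraries. In the reference it was 1.16 and 1.23 times in mitotic and 1.09 and 1.17 times in asynchronous libraries, close to the genome background itself. The local background includes fragments of the peaks themselves, and it was read only where a peak had been called.

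Taken against that raised floor, the called peaks of distal 5p had a lower fold enrichment than those of the reference. The authors' fold enrichment had a median of 3.23 and 2.87 in mitotic and 3.08 and 3.28 in asynchronous libraries. In the reference it was 3.94 and 3.65 in mitotic and 3.78 and 3.97 in asynchronous libraries. So fold enrichment was lower on distal 5p in all 4 libraries although pileups were higher. A peak is judged by its Poisson p-value against the local background. On a higher floor a summit must be taller to be called, and can be called at a lower fold. The part of this in the heights and folds given here was not tested. Peaks of the segment were also wider, with a median of 357 and 400 bp in mitotic and 345 and 344.5 bp in asynchronous libraries, against 287.5 and 317 bp in mitotic and 293 and 276 bp in asynchronous libraries in the reference. These measures come from the same fragments as the density that chose the segment, and they are not tested.

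**Figure D2:**
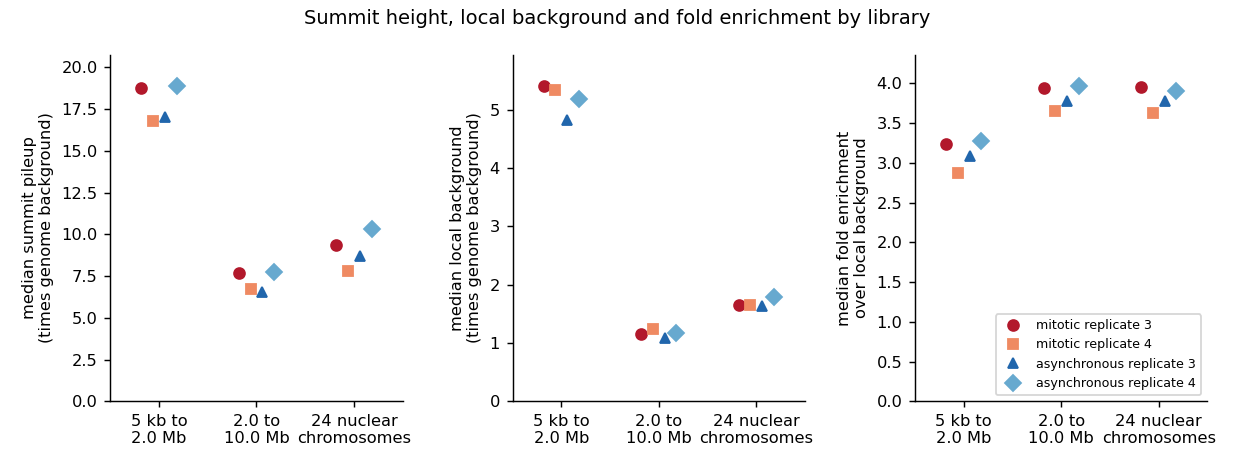
Median summit pileup and median local background, both as multiples of the genome background, and median fold enrichment over local background (y axes) for distal 5p, the reference and all nuclear chromosomes (x axis), 1 point per library. Distal 5p lies above the other areas in the first panels, at 16.8 to 18.9 and 4.82 to 5.401 times the background, and below them in fold enrichment, at 2.87 to 3.28.

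Along the segment, the floor was lowest where summits were sparsest. The median local background was 6.29 and 7 times the genome background in mitotic and 5.98 and 6.04 times in asynchronous libraries between 0.5 and 1.0 Mb. It was 2.25 and 2.21 times in mitotic and 2.17 and 1.94 times in asynchronous libraries between 1.5 and 2.0 Mb. Over the 40 bins, the mean number of summits and the mean local background had a Pearson correlation of 0.71 and a Spearman correlation of 0.70. Over the 30 bins up to 1.5 Mb these were 0.44 and 0.36. Both are descriptions, since the bins share libraries and the peaks themselves feed the local background.

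**Figure D3:**
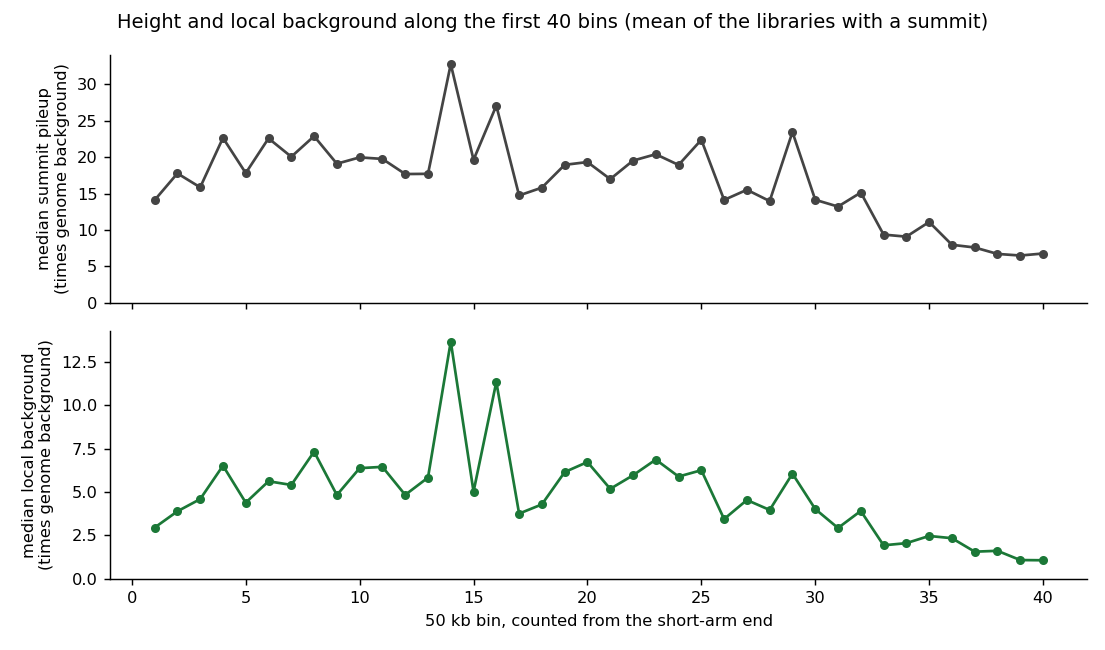
Median summit pileup (upper panel) and median local background (lower panel), as multiples of the genome background (y axes), in the 40 bins of 50 kb from the short-arm end (x axis), averaged over the libraries with a summit in the bin. Bins 14 and 16 stand out at 13.7 and 11.4 times the background in the lower panel, and the last 8 bins lie lowest in the upper one.

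Local background was highest in a few short stretches. Of the blocks of 10 kb that held a summit, 9 had a median local background of at least 10 times the genome background, a threshold chosen after seeing the data. Among these, 3 neighbouring blocks from 660001 to 690000 and 2 from 750001 to 770000 held many peaks of low fold. From 660001 to 700000 there were 7 and 12 summits in mitotic and 14 and 8 in asynchronous libraries, with a median fold of 2.26 and 2.31 in mitotic and 2.18 and 2.62 in asynchronous libraries. From 740001 to 780000 there were 10 and 13 summits in mitotic and 11 and 10 in asynchronous libraries, with a median fold of 2.44 and 2.34 in mitotic and 2.30 and 2.71 in asynchronous libraries. At their called summits both stretches thus had a high local background and a low fold, in both states. They are called plateaus below, although the signal between summits was not seen. In the second, the outer blocks from 740001 and 770001 were lower, at 8.11 and 7.53 times the genome background. It also held the region at 752111, named further on among the highest-ranked. Of the 16 and 15 regions in the first and second stretch, 4 and 4 were called in all 4 lists. Whether the sequence of these stretches is duplicated in the genome was not tested, as no hs1 sequence was used here, and this limits what the pileups, local background and summit counts of bins 14 and 16 measure.

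In the other 4 blocks a library had 1 to 3 summits, and 3 of these blocks held the tallest regions of the segment, described further on. Summits with a local background of at least 10 times the genome background made up 7.19% and 8.18% of the segment's summits in mitotic and 7.93% and 7.80% in asynchronous libraries. Over all nuclear chromosomes they made up 0.473% and 0.521% in mitotic and 0.579% and 0.679% in asynchronous libraries, and in the reference there were 0 in every library.

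No repeated spacing stood out on distal 5p. Neighbouring summits of a library were a median of 5701 and 4142 bp apart in mitotic and 4816 and 5232 bp apart in asynchronous libraries. The SD of these gaps divided by their mean was 1.28 and 0.910 in mitotic and 1.006 and 1.16 in asynchronous libraries. In the reference it was 2.37 and 3.36 in mitotic and 1.97 and 2.07 in asynchronous libraries, where summits fell in clumps with long empty stretches. The longest empty stretch was 129 and 42.6 kb in mitotic and 53.2 and 73.7 kb in asynchronous libraries on distal 5p, against 1186 and 1404 kb in mitotic and 736 and 812 kb in asynchronous libraries in the reference.

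Distances between all pairs of summits were also counted. In classes of 100 bp from 500 bp to 5 kb, the fullest class was 900 to 999 bp in both mitotic libraries, with 9 and 14 pairs. In asynchronous replicate 3 the classes of 1500 to 1599 bp and 4100 to 4199 bp were tied at 10 pairs, and in asynchronous replicate 4 the fullest was 1600 to 1699 bp with 10 pairs. The fullest class was thus not the same in the 4 libraries. The median class held 3 and 6 pairs in mitotic and 4 and 4 in asynchronous libraries. In classes of 1 kb up to 200 kb, the fullest class began at 70 and 8 kb in mitotic and at 13 and 66 kb in asynchronous libraries, a different distance in each. It held 56 and 97 pairs in mitotic and 77 and 57 in asynchronous libraries, against a median of 43 and 73 in mitotic and 57 and 43 in asynchronous libraries.

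Close neighbours were few and their share depended on the distance chosen. Gaps under 500 bp made up 0.722% and 1.06% of gaps in mitotic and 1.53% and 1.42% in asynchronous libraries. The difference was -0.586 percentage points with groups that did not overlap (exact two-sided permutation p = 0.33). These shares rest on very few pairs. Between 400 and 499 bp there were 2 and 2 in mitotic and 3 and 3 in asynchronous libraries. The rest were 2 at 200 to 299 bp in mitotic replicate 4, and 2 and 1 at 300 to 399 bp in asynchronous libraries. With 2 libraries against 2, 0.33 is the smallest p possible, and no single value per library can reach 0.05. Gaps under 1000 bp went the other way, at 10.1% and 10.3% in mitotic and 9.48% and 9.25% in asynchronous libraries (exact permutation p = 0.33). The narrowest peak of a list was 183 and 182 bp in mitotic and 174 and 169 bp in asynchronous libraries, and its part in these gaps was not tested.

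Recurrence between libraries was described over regions. Peaks of the 4 lists that shared at least 1 bp were merged into regions. Distal 5p had 586 regions, of which 124 (21.2%, against 8.38% of all nuclear regions) were called in all 4 lists, 78 in 3, 98 in 2 and 286 (48.8%) in 1 list. There were 242505 nuclear regions in all, and in the reference 24 of 562 (4.27%) were called in all 4 lists. Peaks of the segment were also taller, wider and more closely packed, as given above, and the part of each in this difference was not tested. With a reciprocal overlap of 50% required between the lists, 39 of the 124 shared regions of distal 5p were left, and 9246 of the 20334 of the genome. A smaller part of the shared regions was thus left on distal 5p than over the genome, and the excess in recurrence was smaller under this rule. Of the regions a library had on distal 5p, 46.8% and 33.8% in mitotic and 39.7% and 46.3% in asynchronous libraries were called in all 4 lists, with the lower share in the deeper library of each state.

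The summits of a shared region did not always fall on the same place. In the 124 shared regions the summits of the 4 libraries spread over a median of 243 bp, against 145 bp in the 24 shared regions of the reference and 141 bp in all 20334 shared regions. Summits lay within 200 bp of each other in 39.5% of the shared regions of distal 5p and in 62.7% of all shared regions. Among regions called in at least 2 lists, 193 stood alone, and those less than 1 kb apart formed 43 pairs and 7 groups of 3. No longer series was found.

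The highest-ranked region of distal 5p ran from 1234094 to 1236721 and was a wide block. Its summit reached 197 and 327 fragments in mitotic and 345 and 240 in asynchronous libraries, and the 4 summit positions lay within 5 bp of each other. Divided by the library's median over shared regions, this was 9.85 and 9.91 in mitotic and 13.8 and 11.4 in asynchronous libraries, so both mitotic libraries lay below both asynchronous ones. The difference was -0.35 log2 units (SE 0.14) and did not pass limma over all shared regions (adjusted p = 0.409). It was -0.20 without asynchronous replicate 3 and -0.50 without asynchronous replicate 4. The local background there was 43.5 and 73.9 fragments in mitotic and 61.3 and 47.4 in asynchronous libraries, the highest of any 10 kb block in the segment.

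Sharper summits came next. The region from 817838 to 818933 had 159 and 265 fragments in mitotic and 180 and 155 in asynchronous libraries, at a fold of 9.67 and 8.999 in mitotic and 8.81 and 8.91 in asynchronous libraries. Relative to the shared median these heights were 7.95 and 8.03 in mitotic and 7.20 and 7.38 in asynchronous libraries, a difference of 0.13 log2 units (SE 0.15, limma adjusted p = 0.870). The region from 260952 to 261793 had 97 and 177 fragments in mitotic and 154 and 116 in asynchronous libraries, with all 4 summits on the same base. Its relative height was 4.85 and 5.36 in mitotic and 6.16 and 5.52 in asynchronous libraries (-0.19 log2 units, SE 0.16, limma adjusted p = 0.801). With 1 library left out, the region at 817838 ran from 0.060 (without mitotic replicate 4) to 0.16, and that at 260952 from -0.33 (without mitotic replicate 4) to -0.099 (without mitotic replicate 3). The remaining 7 of the 10 stood at 2.14 to 3.90 times the shared median. They began at 37766, 561219, 608202, 752111, 974803, 1241151 and 1334050.

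**Figure D4:**
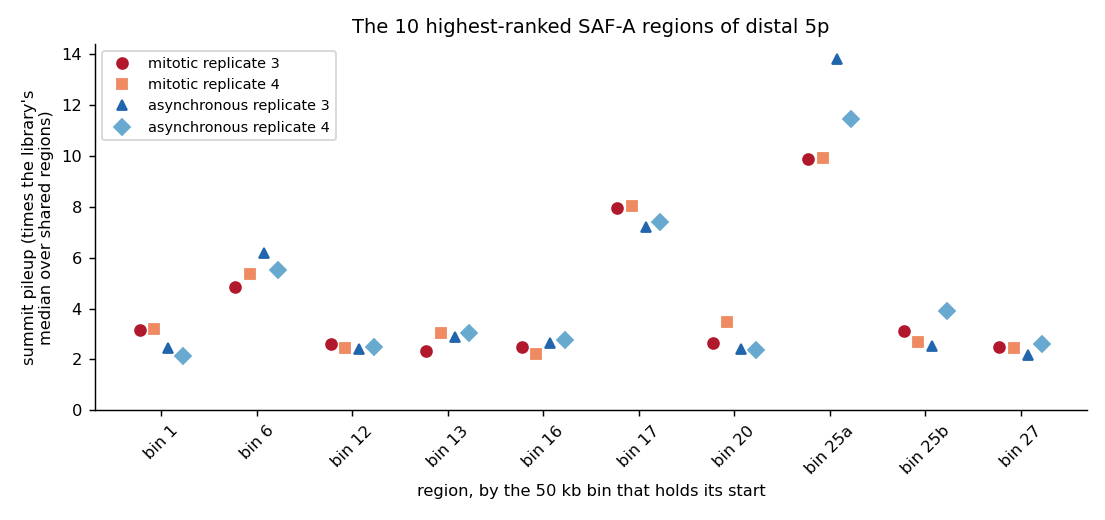
Summit pileup divided by the library's median over shared regions (y axis) for the 10 highest-ranked regions of distal 5p (x axis, by the 50 kb bin that holds their start; 25a and 25b share a bin), 1 point per library. The region of bin 25a stands highest, at 9.85 and 9.91 in mitotic and 13.8 and 11.4 in asynchronous libraries.

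For distal 5p as a whole, mitotic and asynchronous libraries overlapped in summit share and in height. The segment held 0.352% and 0.330% of a mitotic library's nuclear summits and 0.324% and 0.369% of an asynchronous library's, with means of 0.341% ± 0.0158 and 0.347% ± 0.0314 (SD, n = 2; exact permutation p = 1). The height of the segment's median summit over that of the reference averaged 2.47 ± 0.0393 in mitotic and 2.53 ± 0.118 in asynchronous cells (SD, n = 2; exact permutation p = 1). The direction of the share turned without mitotic replicate 4, at 0.00576 percentage points, and without asynchronous replicate 4, at 0.0168, and the direction of the height ratio turned without asynchronous replicate 3, at 0.0278. Among peaks with a -log10 q of at least 5 the height ratio was higher by 0.496 in mitotic cells (exact permutation p = 0.33).

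Some measures separated the states without being able to pass a test. The local background was 5.36 ± 0.0526 times the genome background in mitotic and 4.998 ± 0.253 times in asynchronous libraries (SD, n = 2; exact permutation p = 0.33, groups not overlapping). Divided by that of the reference it was 4.66 and 4.32 in mitotic and 4.41 and 4.43 in asynchronous libraries, and the groups overlapped. Median peak width was 378.5 ± 30.4 bp in mitotic and 344.75 ± 0.354 bp in asynchronous libraries (SD, n = 2; exact permutation p = 0.33, groups not overlapping). Peaks were also wider in the mitotic lists over all nuclear chromosomes, with medians of 312 and 328 bp in the mitotic and 299 and 286 bp in the asynchronous lists.

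Over bins of 50 kb, no difference in covered sequence between the states passed the test on distal 5p. By limma with Benjamini-Hochberg adjustment over 32534 bins of the genome, 0 of the 40 bins of the segment passed, as did 0% of all bins. Without adjustment 1 of the 40 bins (2.5%) had a p under 0.05, against 4.79% of all bins. That bin was bin 36, from 1750001 to 1800000, with 31.3 and 18.2 bp for each Mb that the library's peaks covered in all in mitotic and 5.06 and 0 in asynchronous libraries. After adding a pseudocount of 10 its difference was 1.48 log2 units (SE 0.58, limma adjusted p = 0.872). It is 1 of the sparsest bins, and the size depends on the pseudocount, at 3.34 log2 units with 1 and 0.28 with 100, and on the bin, at 0.55 in bins of 100 kb. The next were bin 40, at -0.90 (SE 0.54), and bin 21, at -0.39 (SE 0.25), with limma adjusted p-values of 0.872 and 0.875. With a pseudocount of 100 they stood at -0.20 and -0.23, and bin 21 at -0.18 without asynchronous replicate 4. Of the 40 bins, 20 were higher in mitotic cells and 20 lower, and the median over the segment was -0.01 log2 units. In simulated data, with changes in bins drawn from the whole genome, the same fit found 0% of 2-fold and 47.5% of 4-fold changes. Bins of the segment had a median SE of 0.26 log2 units, against 0.50 for all bins, so these rates are not those of the 40 bins. The lack of calls does not show that coverage was equal.

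Summit heights at the 124 shared regions were compared in the same way, relative to each library's median over all 20334 shared regions. These 124 of the 586 regions had passed the peak caller in every library, and the others could not enter. By limma 0 of the 124 passed after adjustment, against 0.059% of all shared regions. In simulated data this fit found 1.5% of 1.5-fold, 44.5% of 2-fold and 100% of 4-fold changes. Without adjustment 11 of them (8.87%) had a p under 0.05, against 8.9% of all. With a reciprocal overlap of 50% only 39 regions of the segment were left. Of these, 7 (17.9%) had an unadjusted limma p under 0.05, against 9.58% of all. The states were less than 0.5 log2 units apart in 91.9% of the 124 regions and in 89.4% of all. The median difference was 0.07 log2 units on distal 5p and -0.02 over all shared regions, with a median SE of 0.25 for a region of the segment. Of the 124 regions, 79 were higher in mitotic cells and 45 lower on this scale. With 1 library left out, the median over the regions then shared ran from 0.017 (without asynchronous replicate 3) to 0.17 (without asynchronous replicate 4). With 4 libraries there are 2 residual degrees of freedom, so each SE draws mainly on the spread of all regions together.

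Whether heights were split evenly between the states depended on the scaling. In 61 of the 124 regions (49.2%) the states did not overlap, against 37.3% of all shared regions. Both mitotic libraries lay above both asynchronous ones in 38 regions (30.6%), against 17.1% of all, and below them in 23 (18.5%), against 20.2% of all. Scaled to the genome background, 36 regions (29.0%) lay above, against 15.1% of all, and 22 (17.7%) below, against 22.4% of all. Scaled to the median of the segment's own shared regions, which centres these 124 by construction, 27 (21.8%) lay above and 26 (21.0%) below. That scaling also shifts the other regions, so that of all shared regions 12.6% lay above and 25.6% below. The states then did not overlap in 53 regions of the segment (42.7%), against 38.2% of all. The regions share 4 libraries and neighbours, and these counts have no test of their own.

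**Figure D5:**
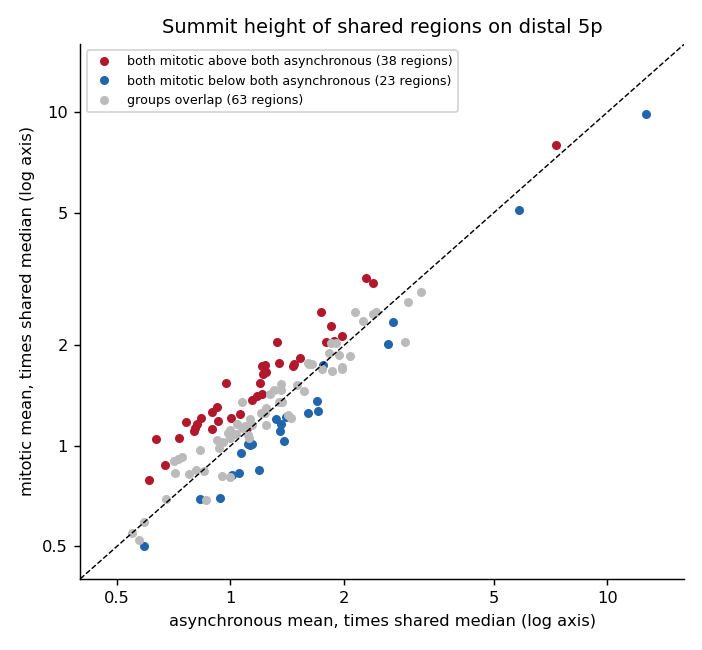
Mean summit height of the 124 shared regions of distal 5p in mitotic (y axis) and asynchronous libraries (x axis), each as a multiple of the library's median over all shared regions, on log axes with the line of equality. The 38 red points have both mitotic libraries above both asynchronous ones, the 23 blue points lie below, and the groups overlap in the 63 grey ones.

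The 3 regions with the smallest limma p in each direction are described here, so their even split comes from that choice. Most of the 11 regions with an unadjusted limma p under 0.05 were higher in mitotic cells. In the other direction the third, at 693491, had an unadjusted limma p of 0.077. The 3 higher ones all lay in the first 0.5 Mb. The region at 37766, not among the 3, was also higher (0.48 log2 units, SE 0.19, limma adjusted p = 0.409), with no overlap between the states. The region from 72120 to 73045 had 35 and 77 fragments in mitotic and 32 and 29 in asynchronous libraries, which was 1.75 and 2.33 times the shared median in mitotic and 1.28 and 1.38 times in asynchronous libraries. The mitotic minus asynchronous difference was 0.60 log2 units (SE 0.23, limma adjusted p = 0.357), with no overlap between the states. It was 0.33 without mitotic replicate 4 and 0.83 without mitotic replicate 3. The region from 256742 to 257015 had 50 and 84 fragments in mitotic and 43 and 37 in asynchronous libraries, which was 2.5 and 2.55 times the median in mitotic and 1.72 and 1.76 times in asynchronous libraries (0.54 log2 units, SE 0.21, limma adjusted p = 0.382). Here the replicates of each state lay closer to each other than to the other state. The region from 406399 to 407172 had 27 and 57 fragments in mitotic and 25 and 20 in asynchronous libraries (0.65 log2 units, SE 0.26, limma adjusted p = 0.393), and stood at 0.40 without mitotic replicate 4.

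In the other direction, after the wide block at 1234094, came the region from 385115 to 385601. It had 48 and 56 fragments in mitotic and 56 and 75 in asynchronous libraries (-0.49 log2 units, SE 0.20, limma adjusted p = 0.434), and its groups overlapped once scaled. Leaving out asynchronous replicate 4 gave -0.17, leaving out asynchronous replicate 3 gave -0.81, and leaving out mitotic replicate 4 gave -0.30. The region from 693491 to 694440 had 28 and 38 fragments in mitotic and 38 and 40 in asynchronous libraries (-0.42 log2 units, SE 0.24, limma adjusted p = 0.620), at the edge of the first plateau, and stood at -0.27 without asynchronous replicate 4. None of these passed the adjustment.

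These directions are relative to the other shared regions. Divided by the summit of the contig named as spike-in, the median shared region was -1.22 log2 units in mitotic against asynchronous cells over the genome and -1.13 on distal 5p. On that scale none of the 124 regions was higher in mitotic cells, and the largest value was -0.50 log2 units. The scale rests on 1 summit per library, of 65379 and 114250 fragments in mitotic and 39953 and 28009 in asynchronous libraries. These summits differed between replicates and lie far above the pileups on which the recovery was simulated. No difference between the states is read from this scale. The sources used here do not say how that contig relates to the spike-in DNA.

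Regions called in 1 state only were few. Called in both mitotic lists and in no asynchronous list were 23 of the 586 regions (3.92%), against 2.8% of all nuclear regions. Called in both asynchronous lists and in no mitotic list were 11 (1.88%), against 1.66% of all. They were scattered over 19 and 11 bins. Median summits of the mitotic-only regions were 18 and 28 fragments, below the 26 and 41 of shared regions, and those of the asynchronous-only regions were 20 and 19, below the 29 and 26.5 of shared regions.

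The strongest mitotic-only region ran from 425731 to 426468, with 43 and 60 fragments. The others named by rank, at 312039, 602713, 971639 and 1118395, had 22 to 25 fragments in mitotic replicate 3 and 32 to 41 in replicate 4. The strongest asynchronous-only regions began at 768172, with 32 and 36 fragments in the second plateau, and at 473168, with 28 and 29. Next were those at 163586 with 25 and 26 fragments, at 428841 with 25 and 24, and at 1552597 with 33 and 19. The one at 428841 was a close neighbour of the strongest mitotic-only region. At a -log10 q of at least 5, 20 mitotic-only and 7 asynchronous-only regions were left. With a reciprocal overlap of 50% there were 26 and 19. With any 1 library left out, when a region needs to be found or missed in fewer lists, the counts were 43 to 130 mitotic-only and 19 to 95 asynchronous-only regions. No share of all nuclear regions is given for these settings, so the counts show only how far the numbers move.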

How the data were processed

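CUT&Tag libraries of 2 mitotic and 2 asynchronous RPE1 samples were grouped by their titles. The submitters' processing notes name build hs1 and the tools MACS2, Bowtie2, fastp and bedtools. The sources used here do not give their versions or settings, a control, or how the spike-in was used. Each library has its own deposited narrowPeak list, called without pooling. Its fold enrichment is a ratio, made by the authors, of summit pileup over local background. The authors' lists also give -log10 p and -log10 q for each peak. The smallest deposited -log10 q was just above 1 in each list. The deposited score was not used.

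Pileups were solved from fold = (pileup + 1) / (background + 1) and the Poisson tail, and checked on simulated data. All 1267 in the segment came out whole within 0.05. Positions count from 1. Depth is known only through the genome background. Peaks sharing at least 1 bp were merged. Limma 3.58.1 (R 4.3.3, trended prior, Benjamini-Hochberg, threshold 0.05) was fitted to log2(covered bp per covered Mb + 10) in bins of 50 kb with a peak in at least 2 libraries, and to log2 summit pileup over the library median in shared regions. It was tested on simulated data. Single values used exact permutation tests.

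The members, lists and tests were chosen with earlier results of these data known. Regions were named by rank of pileup (10), by percentile among state-only regions (5 per state) and by the smallest limma p (3 per direction), and bins by density (5 densest, 3 sparsest) and limma p (3). A planned rule for regions at TERT was not applied, as no hs1 annotation was used here, and one for series of at least 4 regions found none. Local background blocks, distances over 5 kb, spike-in scaling and group overlap by scaling were added after seeing the data. Alternatives were equal list lengths, a -log10 q of at least 5, other pseudocounts, bins, filters, priors and scalings, a reciprocal overlap of 50%, leaving out each library, and a block for the replicate number.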

Additional observations from a re-analysis of the deposited data

How the results depend on the processing

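No bin and no shared region of distal 5p passed limma under any alternative run. Over the genome, 0 bins passed with all libraries under each setting and 0 to 15 with 1 library left out. Among shared regions of the genome 12 passed, and there were 14 with the replicate number as a block, 3 at a -log10 q of at least 5, 6 with a reciprocal overlap of 50%, 0 without a trend in the prior and 0 scaled to the genome background, and 0 to 4 with 1 library left out. Same-numbered libraries did not deviate together (correlations of -0.0181 over bins and -0.0493 over regions). The deeper library was replicate 4 in mitotic and replicate 3 in asynchronous cells. The correlations therefore cannot decide whether libraries of the same number shared a batch. The numbers were not taken as pairs, and the replicate block gave 0 calls in bins. The share of summits had a mitotic minus asynchronous difference of -0.00540 percentage points, -0.0276 to 0.0168 with 1 library left out, and 11.8 summits per Mb without scaling. The height ratio differed by -0.0556, by -0.139 to 0.0278 with 1 library left out and by 0.496 at a -log10 q of at least 5 (exact permutation p = 0.33). Gaps under 500 bp, few in every library, differed by -0.586 points, by -0.754 to -0.418 with 1 library left out, and by 0.846 at 1000 bp. Mitotic-only regions numbered 43 to 130 and asynchronous-only regions 19 to 95 with 1 library left out, where fewer lists must be met. They numbered 20 and 7 at a -log10 q of at least 5, and 26 and 19 with a reciprocal overlap of 50%. These counts have no share of all nuclear regions beside them. Of 164 values for 18 named regions and bins, 160 kept their direction. Part of these could not change it. The settings without a trend in the prior, with the replicate block and without a filter on bins leave the difference itself unchanged. With 1 library left out, the region at 608202 ran from -0.40 to 0.055 log2 units and reversed without mitotic replicate 3, that at 1241151 ran from -0.42 to 0.18 and reversed without asynchronous replicate 4, and that at 1334050 ran from -0.069 to 0.18 and reversed without asynchronous replicate 3. Bin 21 reversed at a -log10 q of at least 5 (0.25). The causes were not tested. Where a state was left with 1 library, it was assumed to vary like the other. Low pileups limit all of these.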

Other observations

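The starts of the other chromosomes put distal 5p in order. Over the same stretch, 5 kb to 2.0 Mb, chromosome 5 had the most summits of the 24 nuclear chromosomes, at a mean of 159 per Mb over the 4 libraries. Chromosome 11 followed with 116, chromosome 16 with 115 and chromosome 17 with 99 per Mb. The same 4 chromosomes had the same order in local background, at 5.18, 3.87, 3.36 and 3.004 times the genome background, and in median summit height, at 17.9, 14.6, 12.9 and 12.1 times. Chromosome 5 was chosen for its density, so its own rank is a description.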
